A study of Acomys cahirinus and Mus musculus with 10 samples.

Results

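The 8 genes described here are the tissue inhibitors of metalloproteinases Timp1, Timp2, Timp3 and Timp4, the plasminogen activators Plau and Plat, the urokinase receptor Plaur and the serpin Serpine2. They were chosen by name, with earlier results of these data known, and all 8 had a value in each of the 8 tables. The comparison set held 14167 ortholog pairs. RNA was sequenced from ear tissue of the spiny mouse *A. cahirinus* (*Acomys*) and the house mouse *M. musculus* (*Mus*) after a 4 mm biopsy punch. The 10 groups were uninjured tissue (D0) and tissue taken at D5, D10, D15 and D20 in each species, and all injured groups carried the same wound with no further treatment. The submitters' design gives 3 animals per day and species, 30 in all. By the study's methods the animals were sexually mature females, the *M. musculus* were outbred, and the sample was a ring of ear proximal to the wound edge, so that each library mixes skin, cartilage, muscle, fat and nerve.

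TIMPs are secreted proteins that block metalloproteinases by inserting their amino terminus into the enzyme's active site. Timp3 is bound to the extracellular matrix and also inhibits ADAM and ADAMTS proteases, whereas Timp2 takes part with Mmp14 in the activation of pro-Mmp2. Plau (urokinase, uPA) and Plat (tissue-type activator, tPA) cleave plasminogen into plasmin, which degrades fibrin. Plaur holds urokinase on the cell surface. Serpine2 (a protease nexin) inhibits these activators.

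The stretches that define these activities are shown to identify what was measured in each species. For each TIMP, the 30 coding bases beginning at the first cysteine of the mature protein are printed 5′ to 3′, with the codons of the first and the next cysteine in capitals. The *Mus* stretches lie in coding exons on the strand of the gene and were placed on mm10 through GENCODE: Timp1 at chrX:20871111-20871140, Timp2 at chr11:118354983-118355012, Timp3 at chr10:86300923-86300952 and Timp4 at chr6:115251662-115251691. The *Acomys* stretches come from the assembled component used for that gene. Among its isoforms, the stretch with the conserved codons and the fewest differences from *Mus* was taken, so the counts of differences are the lowest found.
Timp1 *Mus*: TGTagcTGTgccccaccccacccacagaca
Timp1 *Acomys*: TGTagcTGTgccccgccccacccacagaca
Timp2 *Mus*: TGCagcTGCtccccggtgcacccgcaacag
Timp2 *Acomys*: TGCagcTGCtccccggtgcacccgcaacag
Timp3 *Mus*: TGCacaTGCtctcccagccatccccaggat
Timp3 *Acomys*: TGCacaTGCtcgcccagccatccccaggat
Timp4 *Mus*: TGCagcTGTgcgcctgcgcacccccagcag
Timp4 *Acomys*: TGCagtTGCgcgcctgcgcacccccagcag
Of these 30 bases, Timp1 and Timp3 differed between the species at 1, Timp4 at 2 and Timp2 at 0.

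For the plasminogen activators, the 30 bases around the active-site serine are shown, with the serine codon in capitals. They lie at chr14:20842274-20842303 for Plau and chr8:22781948-22781977 for Plat.
Plau *Mus*: ggcgatTCTggaggaccgcttatctgtaac
Plau *Acomys*: ggagatTCCggaggacctctagtctgtgac
Plat *Mus*: ggtgacTCGggaggccctctggtgtgcatg
Plat *Acomys*: ggtgacTCGggaggccctctggtgtgcatg
With the *Acomys* stretch chosen in the same way, Plau differed at 6 of the 30 bases and Plat at 0. Over the whole alignment the identity of the *Acomys* component to its *Mus* gene ran from 86.7% for Plaur and 87.7% for Plau, through 88.2% for Timp1, 88.8% for Plat, 88.9% for Timp4 and 90.5% for Serpine2, to 94.8% for Timp3 and 95.1% for Timp2. Each component was also the reciprocal best match. The genes without a printed stretch, Plaur and Serpine2, lie at chr7:24462484-24475968 and chr1:79794197-79861180 on mm10. Only Timp2 had components beyond the 99% limit on identity, and these 3 held means of at most 1.92 normalised reads.

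Levels are means of normalised reads per group. The deposited tables hold no values for single animals, so the spread between animals could not be computed and whether the values of single animals overlapped between groups is not known. A gene was called changed where the authors' posterior probability of differential expression was at least 0.95. Fold changes are later day over D0 and are given as log2 values with a counting standard error (SE), which covers read sampling over 3 libraries and not the spread between animals. The means of a group summed to between 14201880 and 16318349 normalised reads in *Acomys* and between 7440295 and 7993235 in *Mus*. In whole-tissue RNA, fewer cells of a type and less RNA per cell cannot be told apart.

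In *Acomys*, 4 of the 8 genes were called higher and 3 lower at D5. Over all components 2.75% were called at D5, and of the ortholog pairs with a mean of at least 10 the share was 47.3%, with 34.8% higher and 12.5% lower. At D10, 5 genes were higher and 2 lower (2.16% of components and 36.7% of pairs called, 23.9% higher and 12.8% lower). At D15, 4 were higher and 2 lower (2.44% and 36.7%, with 20.6% of pairs higher and 16.1% lower), and D20 gave the same counts (1.85% and 31.3%, with 14.4% higher and 16.8% lower). In *Mus*, 5 genes were higher and 2 lower at D5, where 30.0% of all gene numbers and 44.4% of pairs were called, with 25.9% of pairs higher and 18.5% lower. At D10, 6 were higher and 2 lower (29.2% and 42.9%, with 23.7% of pairs higher and 19.1% lower). Both D15 (25.7% and 38.1%, with 20.3% higher and 17.8% lower) and D20 (24.2% and 36.2%, with 18.9% higher and 17.3% lower) gave 4 higher and 2 lower. Timp3 and Timp4 were called lower at every day in both species, and Timp1 and Plat were called higher at every day in both. The median log2 fold change of the 8 genes lay between 0.42 and 0.68 over the 4 days in *Acomys* and between 0.73 and 0.89 in *Mus*. That of all pairs lay between -0.03 and 0.21 and between 0.03 and 0.05. Because the genes were chosen with earlier results known, these shares and medians are a description and not a test of the set.

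**Figure D1:**
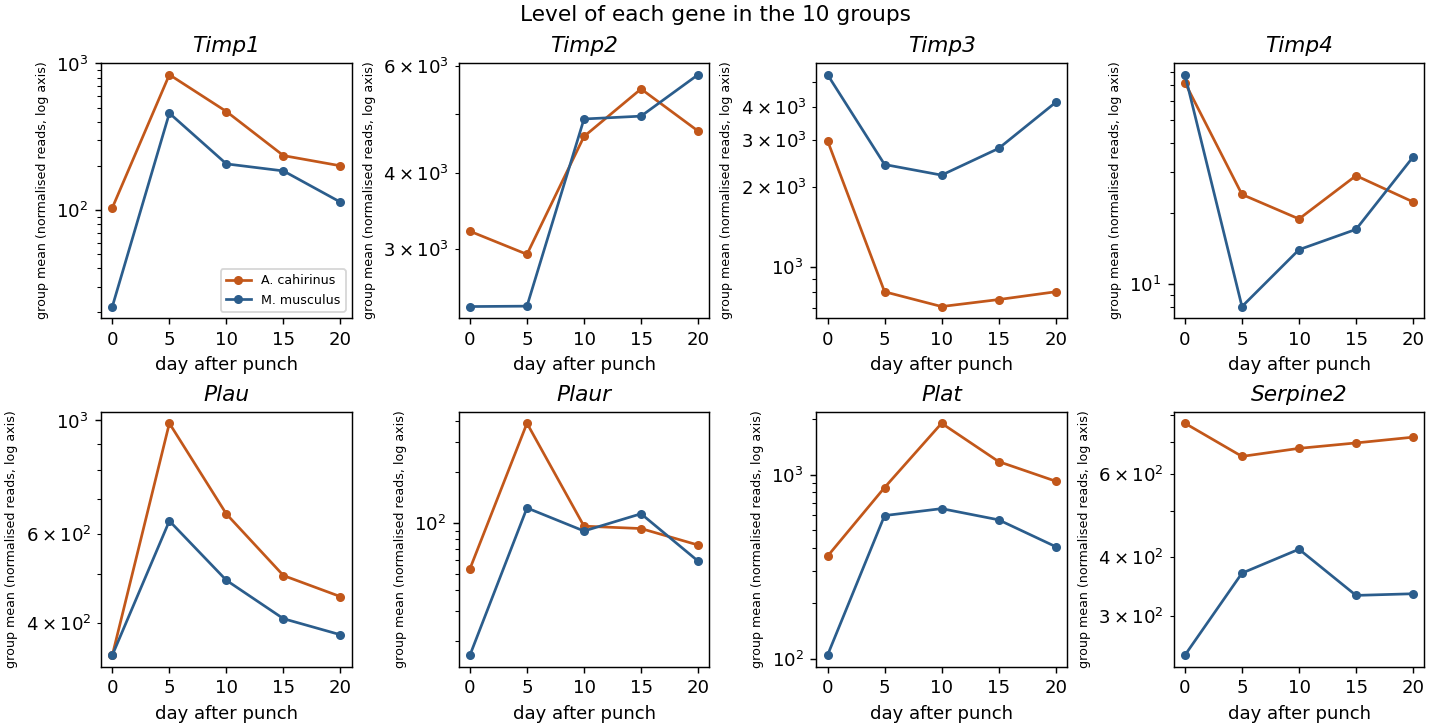
Mean normalised reads (log axis, a separate range in each panel) of the 8 genes against the day after the punch, for *Acomys* (orange) and *Mus* (blue); points are group means with no error bar, because the tables used give no single animals, and the height of one species over the other is not comparable. Timp3 fell to 803 reads in *Acomys* at D20 but was back up to 4172 in *Mus*, from a D0 mean of 5310.1.

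Timp1, an inhibitor induced by inflammation and wounding, rose in both species and was highest at D5. In *Acomys* its means from D0 to D20 were 104, 839, 470.3, 235 and 200.4. The log2 fold change was 3.02 (SE 0.087) at D5 and had fallen to 0.95 (SE 0.10) at D20. In *Mus* they were 22.0, 458, 206.5, 185 and 113. The log2 fold change there was 4.38 (SE 0.182) at D5 and 2.37 (SE 0.189) at D20. The 4 injured groups lay above D0 in each species, and all 8 comparisons were called.

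Timp2 was not called at D5 and was called higher from D10 in both species. In *Acomys* the means were 3203, 2935, 4587, 5492 and 4682 from D0 to D20, with log2 fold changes of 0.52, 0.78 and 0.55 from D10 to D20. In *Mus* they were 2408, 2412, 4901, 4954 and 5797, with log2 fold changes of 1.03, 1.04 and 1.27 on the same days. At D5 the log2 fold change was -0.13 in *Acomys* and 0.0023 in *Mus*, with posterior probabilities of 0.569 and 0.031.

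Timp3 fell in both species, further in *Acomys* on every day, with a species difference in log2 fold change of -0.77, -0.82, -1.07 and -1.55 from the first to the last day. In *Acomys* the mean was 2989 at D0 and then 803, 706.5, 751 and 803, so that the level stayed near 0.269 times D0 at the last day. The log2 fold changes were -1.90, -2.08, -1.99 and -1.90 (SE 0.032 to 0.033). In *Mus* the means from D0 on were 5310.1, 2431, 2216, 2796 and 4172, and the log2 fold change moved from -1.26 at D10 to -0.35 at D20 (SE 0.017). This last value was close to the limit of the call, with a posterior probability of 0.97. In *Acomys* 6 components matched Timp3 best, all with a mean of at least 10, and all 6 were called lower on every day, with log2 fold changes between -2.90 and -1.90 at D5 and between -2.50 and -1.90 at D20.

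Timp4, the inhibitor known from heart, muscle and fat, also fell at all 4 days in both species. Its means in *Acomys* were 72.0, 24.0, 18.9, 28.9 and 22.3 from D0 to D20. In *Mus* they were 77.8, 8.0, 14.0, 17.1 and 34.7. The log2 fold change at D5 was -1.58 (SE 0.196) in *Acomys* and -3.28 (SE 0.309) in *Mus*, and at D20 it was -1.69 (SE 0.20) and -1.16 (SE 0.166). At these means the counting error of a single level reached 20.4% (*Mus* at D5).

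**Figure D2:**
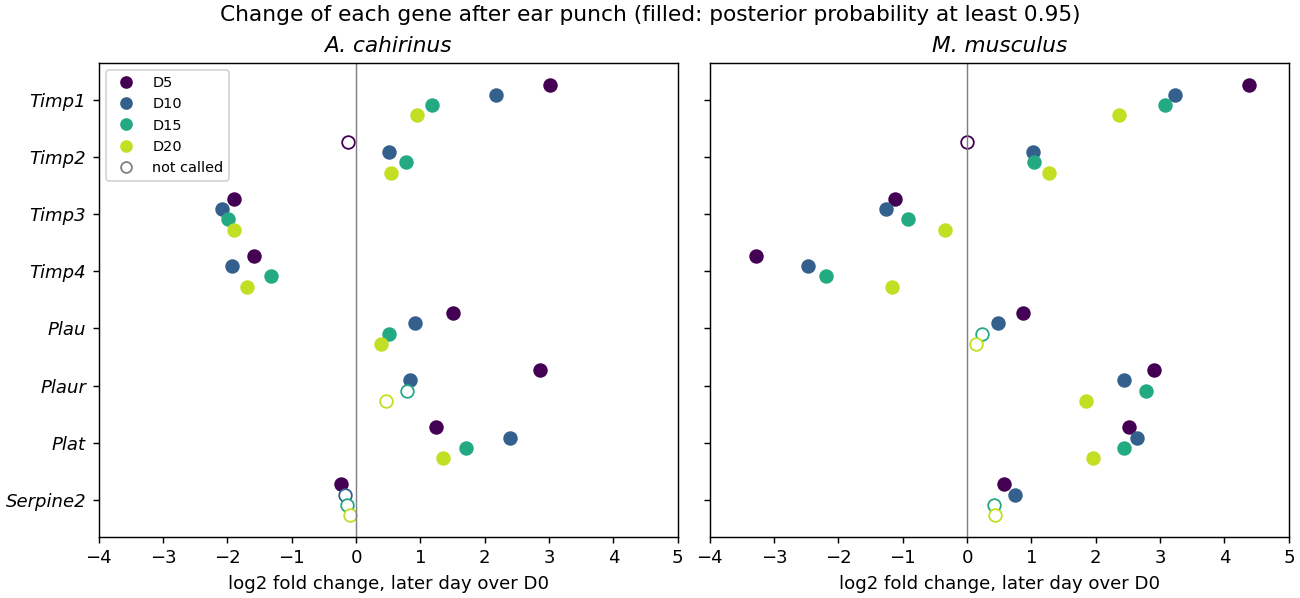
Log2 fold change of later day over D0 (horizontal axis) for the 8 genes, with *Acomys* on the left and *Mus* on the right; colours mark the day, and open circles were not called. Timp3 stayed near -1.9 in *Acomys* and moved to -0.35 at D20 in *Mus*, while Plaur stayed above 1.8 only in *Mus* after D5.

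The makeup of the 4 TIMPs per kilobase was computed for *Acomys* with the best component of each gene over its longest isoform, and again with the components and the length changed, alternatives chosen after seeing the data. The component used for Timp3 held 2989 of the 11563.9 reads at D0 on the 6 components that matched Timp3 best, and 803 of 2881 at D20. With the best component, Timp2 made up 62.1% and Timp3 28.8% of the summed TIMP level at D0. Counting all components below 99% identity over the same lengths gave 57.3% for Timp3 and 38.0% for Timp2, so that the order of the pair turned. Changing only the length, to that of the *Mus* transcript, gave 37.8% and 52.3%, and both changes together gave 67.0% and 28.5%. In *Mus* Timp3 made up 60.4% and Timp2 35.4%. At D20 the Timp3 share in *Acomys* was 6.9% by the best component, 18.4% by all components and 25.4% with both changes, and in *Mus* it was 33.7%. The Timp3 share was lower at D20 than at D0 in each of these 4 counts of *Acomys* and in *Mus*. At D5 the order of Timp1 and Timp2 in *Acomys* by the best component also depended on the length, with 43.9% and 48.7%, and 48.5% and 41.7% with the *Mus* length. With all components Timp2 stayed first, with 35.3% for Timp1 and 45.9% for Timp2, and 37.7% and 38.1% with the *Mus* length.

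**Figure D3:**
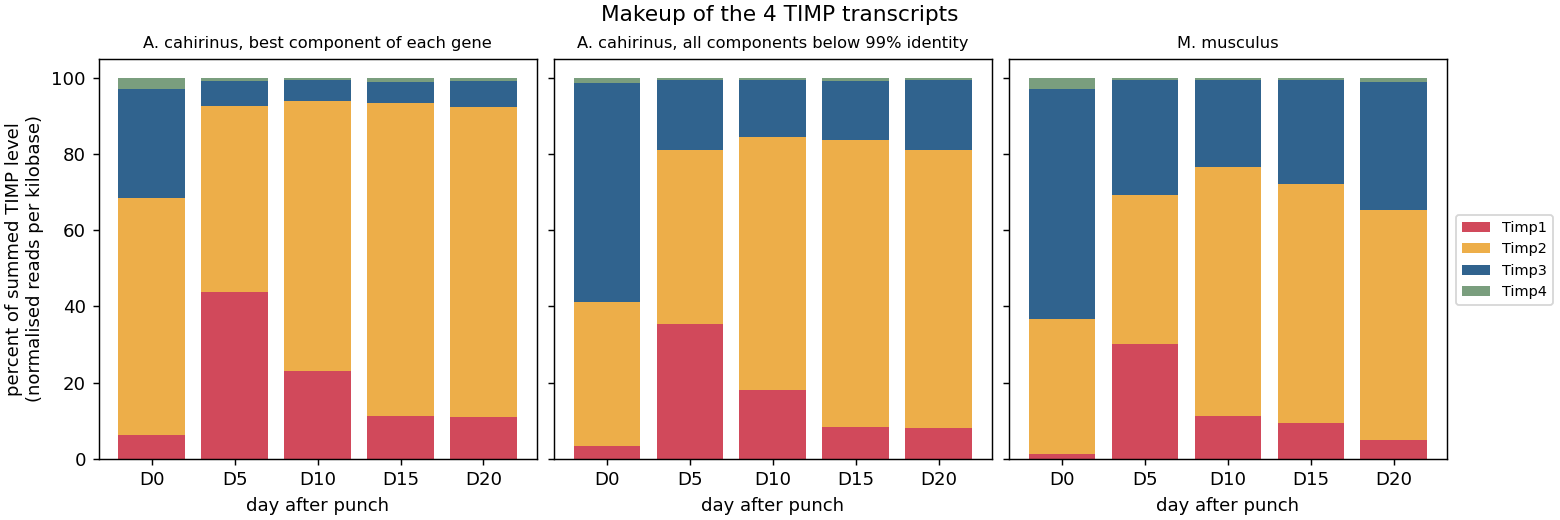
Share of each TIMP (stacked bars, percent) in the summed level of the 4 genes, in normalised reads per kilobase, by day; the left panel uses the best *Acomys* component of each gene and the middle panel all its components below 99% identity, both over the longest isoform of the best component, and the right panel shows *Mus*. The D0 share of Timp3 in *Acomys* was 28.8% in the left panel and 57.3% in the middle one, against 60.4% in *Mus*.

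Plau, urokinase, rose in both species and was highest at D5. Its means in *Acomys* were 346.5, 987.5, 655, 496 and 451 from D0 to D20, with log2 fold changes of 1.51 (SE 0.052), 0.92, 0.52 and 0.38, all called, the last with a posterior probability of 0.982. In *Mus* the means were 346.6, 635, 486, 408.5 and 379.9, and only D5 (0.87, SE 0.056) and D10 (0.49, SE 0.053) were called. The posterior probability was 0.12 at D15 and 0.116 at D20.

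Plaur, the urokinase receptor, rose by a like amount at D5 in each species. Its means in *Acomys* were 53.5, 389.7, 95.8, 92.7 and 74.0, and in *Mus* 16.5, 123, 89.6, 113 and 59.5. The log2 fold change at D5 was 2.86 (SE 0.121) and 2.90 (SE 0.218). The *Acomys* values at D10 and D15 were 0.84 and 0.79, beside 2.44 and 2.78 for *Mus*. In *Mus* all 4 days were called. In *Acomys* D5 and D10 were called, and the posterior probabilities at D15 and D20 were 0.001 and 0. The call was lost from D10 to D15 although the log2 fold changes were close, at 0.84 (SE 0.132) and 0.79 (SE 0.134).

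Plat, tissue-type plasminogen activator, was called higher at all 4 days in both species. In *Acomys* its means were 360.3, 850.4, 1899.9, 1176 and 921, with the highest at D10 and a log2 fold change of 2.40 (SE 0.044) there. In *Mus* they were 104.5, 599, 653, 568 and 406, with log2 fold changes of 2.52 (SE 0.088) at D5 and 2.64 (SE 0.079) at D10. At D20 the log2 fold change was 1.35 in *Acomys* and 1.96 in *Mus*. Of the 3 genes of the activator arm, Plat was the one that had the highest value against D0 at D20 in each species, although in *Mus* Plaur was at 1.85 (SE 0.226), within the counting error of Plat.

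Serpine2, an inhibitor of thrombin and of both activators, stayed within 0.75 of D0 on the log2 scale in every group. Its means in *Acomys* were 767, 652, 678.5, 697 and 717, with a log2 fold change of -0.23 (SE 0.044) at D5 that was called (-0.44 when centred on the median pair, which stood at 0.21), and posterior probabilities of 0.889, 0.741 and 0.011 on the later days. In *Mus* the means were 247, 369, 415, 331 and 334. The log2 fold change was 0.58 (SE 0.068) at D5 and 0.75 (SE 0.061) at D10, both called, and at D20 the posterior probability was 0.948, just under the limit.

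The change was compared between the species as the log2 fold change in *Acomys* minus that in *Mus*, averaged over D5 to D20. The difference was not tested, because the species were normalised separately and no animals are given. It was -1.43 for Timp1, -1.25 for Plaur, -1.05 for Timp3, -0.72 for Plat, -0.71 for Serpine2, -0.40 for Timp2, 0.40 for Plau and 0.65 for Timp4. Among the 14167 ortholog pairs the median difference was 0.04 with quartiles of -0.34 and 0.37, and Timp1 stood at the 6.1 percentile, Plaur at 7.3, Timp3 at 9.2, Plat at 13.8, Serpine2 at 14.1 and Timp2 at 22.3. Timp4 stood at 86.3 and Plau at 76.7. The Timp4 difference turned sign by day, from 1.70 at D5 to -0.52 at D20, and its mean was 0.30 without D5 and 1.04 without D20.

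**Figure D4:**
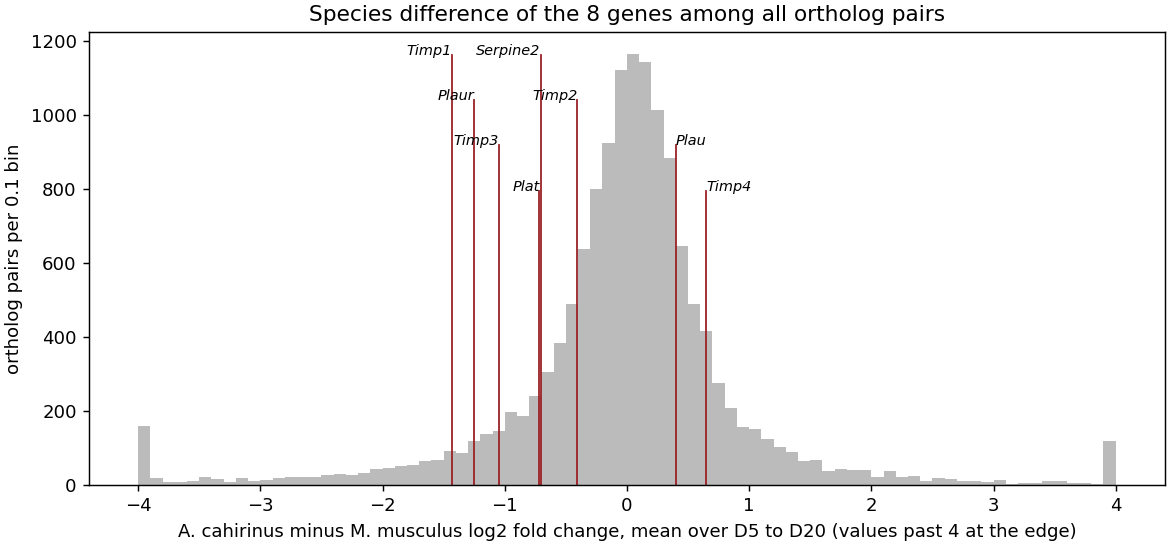
Histogram of the species difference in log2 fold change (mean over D5 to D20) over 14167 ortholog pairs, in bins of 0.1 with values beyond 4 gathered at the edges; red lines mark the 8 genes. Of the 8 genes, 6 lie below the lower quartile of -0.34, from Timp1 at -1.43 to Timp2 at -0.40, and Plau and Timp4 lie above the upper quartile of 0.37.

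The wider list of plasmin and metalloproteinase genes held 52 genes, of which 42 had an ortholog pair and 48 a value in *Mus*. Serpina5, Klkb1, Mmp7 and Mmp9 had no value here in either species. In *Acomys* 21 of 42 were called higher and 4 lower at D5 (34.8% and 12.5% of pairs), and 13 higher and 7 lower at D20 (14.4% and 16.8% of pairs). In *Mus* 24 of 48 were called higher and 7 lower at D5 (25.9% and 18.5% of pairs), and 23 higher and 5 lower at D20 (18.9% and 17.3%). These shares are of pairs with a mean of at least 10. Over all features, 2.75% were called at D5 and 1.85% at D20 in *Acomys*, and 30.0% and 24.2% in *Mus*. The median log2 fold change of the list at D20 was 0.01 in *Acomys* and 0.48 in *Mus*, beside -0.03 and 0.03 over all pairs. The counts and medians cover different genes in each species, and those of *Mus* include genes with no pair. The list was also chosen with earlier results known, so none of this is a test.

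Among the inhibitors on that list, Serpinb2 was called lower at D15 and D20 in *Acomys* (log2 fold changes of -0.91 and -0.96) and at D5, D10 and D20 in *Mus* (-0.72, -1.03 and -1.32). Serpini1 (neuroserpin) was not called in either species, and Serpinf2 was not called in *Mus*. Reck, a membrane inhibitor of metalloproteinases named after its values were seen, was called lower at D5, D10 and D15 in both species, with -1.05 in *Acomys* and -1.29 in *Mus* at D5. Serping1, named likewise, was called higher at D10 in *Acomys* (0.42). A2m, a broad protease inhibitor of a gene family with close paralogs, was called higher on all 4 days in *Acomys* (1.68 to 2.01) and lower on all 4 in *Mus* (-4.36 to -2.84).

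Plg, the precursor of plasmin made in the liver, had a mean of 0.763 at D0 in *Mus* and was not called. Of the cell-surface partners of plasminogen, Plgrkt was not called in either species. Anxa2 was called higher at D5 in both (0.98 in *Acomys* and 0.60 in *Mus*). S100a10, its partner, was called higher at D5 in *Acomys* (0.96), and in *Mus* it was called at D20 (0.39), with a D5 value of 0.30 that was not called. Lrp1, which clears activator and inhibitor complexes, was called at D5 to D15 in *Acomys* and on all 4 days in *Mus*, with 0.93 at D20. Mrc2, which binds urokinase receptor complexes and takes up collagen, was called on all 4 days in both, with 1.85 and 1.41 at D15. Vtn (vitronectin), an adhesive protein of plasma and matrix, was called lower at D20 in *Acomys* (-2.11) and at D5 in *Mus* (-1.33).

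Of the metalloproteinases that TIMPs inhibit, Mmp13 was called higher on 4 days in *Acomys* and on 3 days in *Mus*. At D10 its log2 fold change was 7.23 in *Acomys* and 5.40 in *Mus*, from D0 means of 4.95 and 1.46 reads. Both D0 means were below 10, so these sizes rest on few reads. Mmp14, the membrane protease that works with Timp2, was called on all days in both, with 2.06 and 2.60 at D15. Mmp3 reached 5.84 in *Acomys* and 2.24 in *Mus* at D5. Mmp11 reached 4.51 and 2.01 at D15. Adam12, inhibited by Timp3, was called higher on all days in both, with 2.68 in *Acomys* and 6.17 in *Mus* at D10. Adamts4 likewise reached 2.22 and 4.79 at D10, in *Mus* from a D0 mean of 9.31 reads. Mmp19 was called higher on all days in both (2.67 in *Acomys* at D15 and 2.43 in *Mus* at D5), and Mmp23 on 3 days in *Acomys* and 4 in *Mus* (2.17 and 3.54 at D15). Mmp12, the macrophage elastase, was called higher at D5, D10 and D15 in *Acomys*, with 3.65 at D10. In *Mus* it was called lower on all 4 days, between -0.69 and -0.35. Its D0 mean was 10.1 reads in *Acomys* and 815 in *Mus*, so the sizes in *Acomys* rest on few reads. Mmp28, named after its values were seen, was called lower on all 4 days in *Acomys* (-1.36 at D15) and at D15 in *Mus* (-0.47). In *Mus* Mmp16, Mmp17, Adamts15, Cd63, Thbd and Procr were also called higher on at least 3 days, with 2.24, 2.00, 2.19, 2.20, 1.48 and 1.78 at D10. The D0 mean of Mmp17 there was 8.85 reads. In *Acomys* Thbd was called higher at D5 (1.70) and D10 (0.74), Mmp16, Mmp17 and Procr were not called, and Adamts15 and Cd63 had no reciprocal pair.

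**Figure D5:**
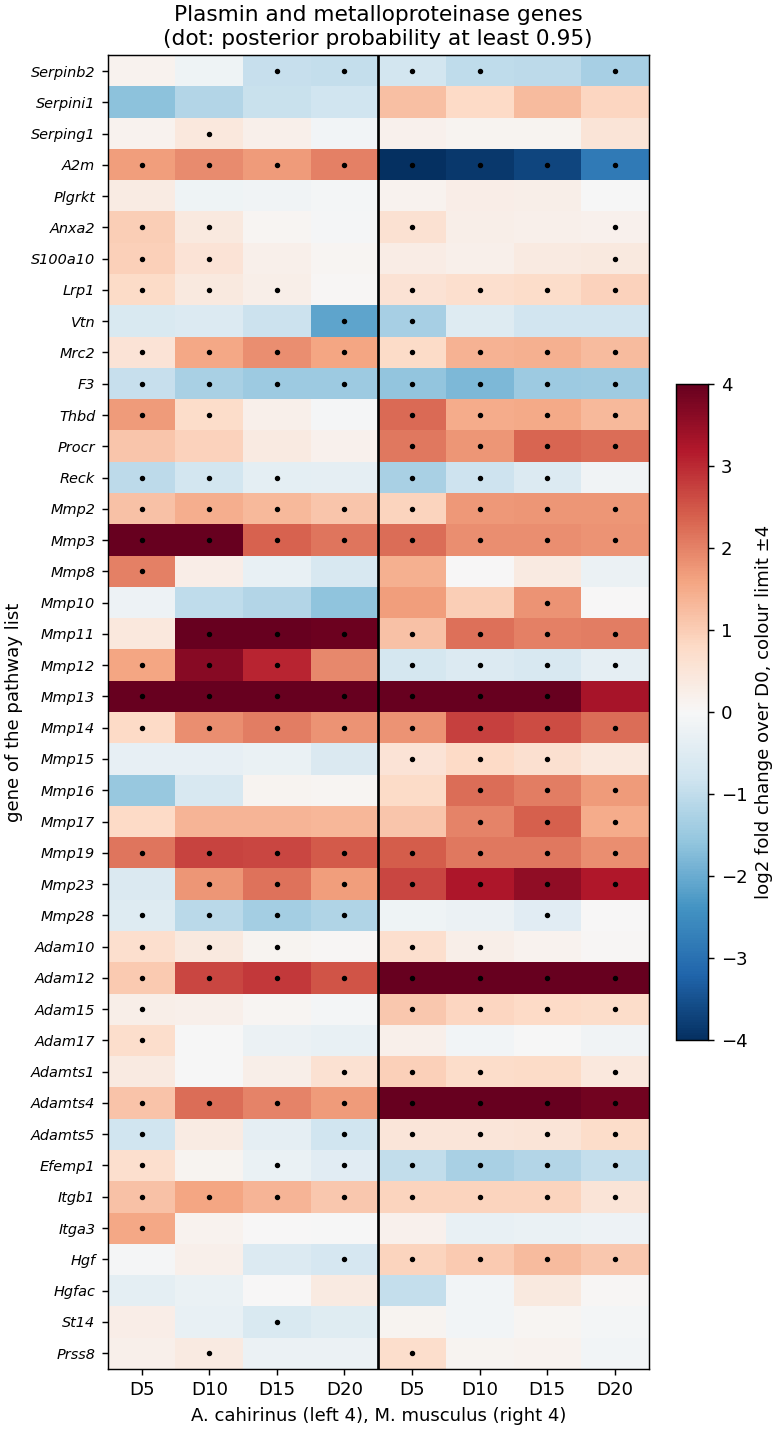
Log2 fold change over D0 (colour, limited at 4 in either direction) of the 42 paired genes of the plasmin and metalloproteinase list, in *Acomys* (left columns) and *Mus* (right columns) by day; a dot marks a call. A2m is red in *Acomys* and blue in *Mus*, and Mmp13 is at the colour limit on all 4 days in *Acomys*.

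The summed levels of cell type markers are set beside the genes here, and their part in the results was not tested. Beside Timp1 and Plaur, the summed level of the measured macrophage markers went from 1322 to 6153 at D5 in *Acomys* (4 of 4 called higher) and from 1730 to 4208 in *Mus* (4 of 5 higher and 1 lower). At D20 it was 1476 in *Acomys*, where 0 of 4 were called, and 3197 in *Mus*, where 4 of 5 were called higher. The neutrophil sum in *Mus*, over 4 measured markers, was 73.5 at D0, 4101 at D5 and 82.8 at D20. At D5, 3 of these 4 were called higher and 1 lower, and 2 of the 4 were below 10 at D0. The single neutrophil marker measured in *Acomys* went from 17.7 to 889 at D5. Beside Timp4, the skeletal muscle sums from D0 to D20 were 46030, 6505, 8545, 9147 and 4598 in *Acomys*. In *Mus* they were 32490, 5569, 5493, 4535 and 3424. All measured muscle markers were called lower on every day in both species. The muscle sum in *Mus* was lowest at D20, whereas Timp4 there was lowest at D5 (8.0 reads) and stood at 34.7 reads at D20. The fat sum at D20 was 965 against 7161 at D0 in *Acomys* (4 of 4 lower) and 912 against 1027 in *Mus* (0 of 4). Beside Timp3, the fat sum from D5 to D20 was 4010, 1898, 1333 and 965 in *Acomys* and 579, 448, 510.5 and 912 in *Mus*. The Schwann cell sum went from 3999 at D0 to 1247 at D5 and 733 at D20 in *Acomys*, and from 2433 to 633 and 1207 in *Mus*. All 5 Schwann cell markers were called lower at D5 in *Acomys* and 4 of 5 in *Mus*, and at D20 the counts were 4 and 3. The cartilage sums from D0 to D20 were 4543, 2293, 2716, 2732 and 2365 in *Acomys*, over 2 measured markers, and 4035, 2016, 3797, 3846 and 4252 in *Mus*, over 4. At D5, 2 of 2 were called lower in *Acomys*, and in *Mus* 1 was called higher and 2 lower. At D20, 1 was called higher and 1 lower in *Acomys*, and 2 higher and 1 lower in *Mus*. Beside Plau, the keratinocyte sum at D5 was 21290 against 15830 in *Acomys* (1 of 2 called higher) and 136700 against 52640 in *Mus* (2 of 3). Beside Timp2, the fibroblast sums from D0 to D20 were 24080, 21080, 61490, 87420 and 76100 in *Acomys* (3 of 4 called higher and 1 lower at D10). In *Mus* they were 20430, 69330, 138200, 150500 and 141000 (3 of 5 higher at D10). The counts at D5 were 1 higher and 1 lower in *Acomys*, and 2 of 5 higher in *Mus*. Those at D15 were 3 higher and 1 lower in *Acomys*, and 2 of 5 higher in *Mus*. Such sums give most weight to the markers with the most reads. Beside Plat, the endothelial sum at D5 was 2651 against 3225 in *Acomys* (0 of 5 called higher and 1 lower) and 2508 against 1100 in *Mus* (5 of 5 higher). At D20 it was 1928 in *Acomys*, with 4 of 5 called lower, and 1833 in *Mus*, with 4 of 5 called higher. The mural cell sum at D10 was 10070 against 8474 in *Acomys* (2 of 5 called higher and 1 lower) and 4869 against 2797 in *Mus* (4 of 5 higher). No measured marker was at 0 in uninjured tissue.

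By correlation over the 8 log2 fold changes, in which the 4 values of a species share the D0 group, the pairs most like each gene are given as a description. Timp1 was closest to Adrm1, G6pdx and Rpl26 (r of 0.995, 0.995 and 0.994), Timp2 to Nsmf, Zdhhc8 and Fgd1 (0.991, 0.99 and 0.99), Timp3 to Gypc, Fbxw4 and Magi1 (0.988, 0.986 and 0.982) and Timp4 to Cnot10, Frzb and Ldlrad3 (0.986, 0.982 and 0.977). Plau was closest to Ywhaz, Atp5c1 and Tmem123 (0.993, 0.992 and 0.991), Plaur to Zmynd15, Snrpd2 and Gart (0.988, 0.986 and 0.985), Plat to Olfml3, Ttc13 and Reep1 (0.975, 0.965 and 0.946) and Serpine2 to Rchy1, Clstn2 and Wnt16 (0.987, 0.983 and 0.982). The measure ignores the size and the mean of the 8 values, and so also their sign. Rpl26, Fbxw4, Atp5c1 and Reep1 each had the opposite sign to Timp1, Timp3, Plau and Plat in 8 of 8 comparisons, Cnot10 to Timp4 and Tmem123 to Plau in 5, Wnt16 to Serpine2 in 4, and G6pdx to Timp1 and Rchy1 to Serpine2 in 3. The other 15 pairs had the opposite sign in 0 to 2. Frzb, with no opposite sign, had log2 fold changes of -2.01 and -3.83 at D5, beside those of Timp4 above, whereas those of Cnot10 were 0.08 and -0.14.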

How the data were processed

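The deposited tables compare each later day with D0 within a species and hold, per feature, a score (the authors' posterior probability of differential expression) and ratio columns (fold changes of D0 over the later day); the authors made them with RSEM estimates, per the labels, against an mm10 gene set in *M. musculus* and a de novo assembly in *A. cahirinus*, and tested them with EBSeq. These columns are the authors' own comparisons. No other measurement per group is held in the data used here, so the probabilities serve as the calls. The paired ratios were solved for the group means (normalised reads). On 20000 simulated features, made without noise by the same formulas, the largest error was 2.57e-09 of the mean plus 1. This checks the algebra only and cannot show that the deposited ratios follow these formulas. Tables of a species were scaled to a common D0 median, after which D0 means agreed within 0.0044 (log2).

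The deposited BLASTN output gives percent identity and other alignment values by the authors. Gene numbers of *M. musculus* were named from the deposited transcript list by order and by matches to GENCODE M21 (minimap2 2.31), with 1992 known pairs as anchors, and 1781 of 1799 held-out placements were right (99.0%). A placement probability of at least 0.9 was required, and each of the 8 genes reached 0.978 or more. *A. cahirinus* components were reciprocal best hits below 99% identity. The members and lists were chosen with earlier results of these data known. An item of the wider list is not reported here, and the list's counts leave it out. Genes named from the wider list were fixed inhibitors and plasminogen partners, and others called on at least 3 days with a log2 fold change of at least 2, besides Mmp28, Reck and Serping1, which were named after their values were seen. Python 3.11.15, NumPy 2.4.6 and pandas 2.3.3 were used. A mean of 10 over 3 libraries carries a counting error of 18.3%. The alternatives were a limit of 0.99, a least log2 fold change of 1, a least mean of 10, no identity limit, the second fold change, a pseudocount of 1, median centring and summed components.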

Additional observations from a re-analysis of the deposited data

Results flagged for a closer look

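Serpine2 at D5 was called in both species in opposite directions, with a log2 fold change of -0.23 in *Acomys* and 0.58 in *Mus*. Centred on the median pair of each species, the values were -0.44 and 0.54. The difference between the species was not tested.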

How the results depend on the processing

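Of 52 alternative counts of genes called, 47 stayed within 1.5 times the reported count. With a least log2 fold change of 1, the 8 genes called in *A. cahirinus* were 4 at D10 and 3 at D20, and the wider list gave 13 at D5 and 15 at D10 in *A. cahirinus* and 17 at D5 in *M. musculus*. Of 256 alternative log2 fold changes, 255 kept their direction, and Timp2 at D5 in *M. musculus* became -0.036 when centred on the median pair. Most of these alternatives could not change a direction. The second fold change and the pseudocount add the same constant to both means, and with no identity limit each of the 8 genes kept the same component. Only median centring, and summing for genes with several components, could do so. In *A. cahirinus* the same centring moved Serpine2 from -0.23 to -0.44 at D5 and from -0.18 to -0.27 at D10, and Timp2 from -0.13 to -0.33 at D5. All 64 alternative species differences kept their sign, but that of Timp4 went from 0.65 to 0.30 without D5 and to 1.04 without D20. At the limit of 0.99, Plau in *A. cahirinus* and Timp3 in *M. musculus* lost their D20 calls. The D0 share of Timp3 among the TIMPs in *A. cahirinus*, 28.8%, became 57.3% with all components, 37.8% with the *M. musculus* length and 67.0% with both, alternatives chosen after seeing the data. No paired analysis was possible because the tables hold group values and no animals, which is also why leaving out each replicate could not be run. Depth limits Timp4 and the D0 values of Timp1 and Plaur in *M. musculus*, where the counting error was 12.3% and 14.2%.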
